A study of Homo sapiens with 18 samples.

Results

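The comparison described here is the change in gene expression between 3 and 6 h of interleukin-1β (IL-1β) in ECV304 cells that received no other agent. It rests on 6 of the 18 arrays of the study, the 3 titled for IL-1β at 6 h and the 3 titled for IL-1β at 3 h. The whole study followed IL-1β for 1, 3 and 6 h, either alone or together with aminaphtone, a drug used for capillary disorders, at 6 μg/ml, with 3 arrays in each of the 6 groups. The platform was the Affymetrix Human Gene 1.0 ST array, and values are log2 signals per transcript cluster (the probes grouped to 1 transcript locus). In the 6 h group and in the 3 h group alike, confluent cells had been held for 24 h in 1% serum before IL-1β was added at 100 IU/ml, with medium in place of the drug. No group without IL-1β is among the samples, so the time with the cytokine and the time after the medium was changed cannot be told apart. The design text calls the replicates independent, and nothing more is said of how the cultures were separated, so a p-value here speaks only of variation among these cultures.

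IL-1β is a cytokine whose receptor signals through NF-κB and the stress-activated kinases. The earliest transcripts to respond encode short-lived regulators, cytokines and the inhibitors that switch NF-κB off again, and secreted proteases that act on the extracellular matrix accumulate later. Hypoxia-response genes, many of which are bound by the factor HIF-1, serve glucose uptake, glycolysis, collagen modification and removal of mitochondria, and HIF-1 activity is known to respond to inflammatory signals as well as to low oxygen.

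The 15796 annotated transcript clusters tested were those whose log2 signal averaged over 6.193, the 25th percentile. Of these, 14481 carried a single gene symbol, for 13805 genes in all. Signals correlated at 0.984 to 0.994 among the 6 h arrays and at 0.970 to 0.987 among the 3 h arrays. The arrays of IL-1β alone at 1 h, which are no part of the comparison but enter the shared estimate of spread, correlated at 0.889 to 0.963. Median signals per array lay between 6.926 and 7.055. Of 12 endothelial marker genes, 6 were under the signal filter, namely PECAM1, VWF, KDR, TEK, EMCN and ERG. CDH5, TIE1, ESAM, CLDN5, ROBO4 and EGFL7 passed it, from 6.46 for TIE1 to 9.02 for ESAM at 6 h. Of the epithelial markers, the keratins KRT7, KRT8 and KRT18 averaged 11.3, 12.3 and 11.7 at 6 h. The others were lower: EPCAM, KRT19 and CDH1 averaged 7.14, 6.68 and 6.29, and GRHL2 was under the filter. Of 10 urothelial markers on the array, 9 passed the filter, from 6.41 for UPK1B to 8.31 for PPARG at 6 h. KRT20 was under it. ECV304 is listed in cell line registers as a derivative of T24, a bladder carcinoma line. None of the 30 tested markers of endothelial, urothelial, epithelial, fibroblast or leukocyte identity was called between 6 and 3 h, and the mean over the endothelial list spanned 6.45 to 6.59 in 6 h arrays and 6.5 to 6.63 in 3 h arrays. In bulk samples, fewer cells of a kind and less RNA per cell cannot be told apart.

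At 6 h, compared with 3 h, signals of MMP1, MMP3 and MMP10, of hypoxia-response genes such as STC2, PFKFB4 and BNIP3 and of the glycolytic gene HK2 were higher, and signals of the sterol synthesis gene IDI1, of the regulators REL, IRF1 and NFKBID and of TNF were lower. In limma, with Benjamini-Hochberg adjustment over all transcript clusters and a threshold of 0.05, 81 transcript clusters were called (0.513% of those tested), 55 higher (0.348%) and 26 lower (0.165%) at 6 h. They stand for 54 genes with a higher signal (0.391% of genes) and 20 with a lower signal (0.145%), since TNF is represented by 3 transcript clusters, SNORA10 by 2, and 4 clusters carry several symbols. Of these genes, 15 differed at least 2-fold upwards and 7 at least 2-fold downwards. In all 81 called clusters the 6 h arrays and the 3 h arrays did not overlap, as was also the case in 10.8% of all tested clusters in the higher direction and 7.87% in the lower direction. At an unadjusted p under 0.05 there were 1582 clusters (10.0%), and, by gene, 5.36% of all genes were higher and 4.83% lower. With the 1 h group left out of the fit, an alternative chosen after seeing the data, 441 clusters were called (1.61% of those tested higher and 1.18% lower), including the same 81, for 229 genes higher (1.66%) and 175 lower (1.27%). Single arrays carried much of the count: it was 16 without replicate 1 and 29 without replicate 3 of the 6 h group, 18 without replicate 2 and 163 without replicate 1 of the 3 h group, and 235 and 309 without replicates 1 and 2 of the 1 h group. The 16 clusters called whichever array of the 18 was left out were those of MMP1, MMP3, MMP10, STC2, PFKFB4, BNIP3, P4HA1, P4HA2, HILPDA, HK2, LRIG3, AJUBA, PTCH1, POFUT4, DIPK2A and, as the only one with a lower signal, IDI1.

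The largest rise was in interstitial collagenase, MMP1, on chromosome 11. Its log2 signals were 9.90, 8.85 and 9.84 at 6 h, against 7.27, 7.14 and 7.79 at 3 h. The lowest 6 h array lay more than 1 log2 unit above the highest 3 h array. The difference was 2.13 ± 0.22 (SE), a 4.37-fold rise with an adjusted p of 9.42e-05 in limma. Stromelysin 1, MMP3, which cleaves proteoglycans and activates other proteases, had 9.22, 7.98 and 8.99 at 6 h, against 6.86, 6.5 and 7.39 at 3 h. In both genes the second 6 h array was the lowest of its group. MMP3 rose by 1.81 ± 0.26 (adjusted p = 0.00397). Stromelysin 2, MMP10, had 8.89, 8.32 and 9.15 at 6 h, against 7.45, 7.33 and 7.55 at 3 h. The 3 h arrays of MMP10 lay close together, well below all 6 h arrays. Its difference was 1.34 ± 0.17 (adjusted p = 0.0012).

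These 3 genes are next to each other in the RefSeq annotation (GRCh38.p14), in the order MMP10, MMP1, MMP3, inside a run of metalloproteinase genes. In that run MMP20, MMP27, MMP8, MMP12 and MMP13 had signals too low to be tested, and MMP7, matrilysin, differed by 0.91 without passing the test (adjusted p = 0.231). Elsewhere in the genome no metalloproteinase or inhibitor was called. Of the 25 tested members of the list of metalloproteinases and their inhibitors, 3 were higher and 0 lower, beside 0.391% and 0.145% of all genes. The median difference was −0.01, beside −0.00 over all genes tested. TIMP1, an inhibitor of these enzymes, had signals of 13.38, 13.25 and 13.35 at 6 h, against 13.00, 13.15 and 13.17 at 3 h. The groups did not overlap, but the difference of 0.22 did not pass the test (adjusted p = 0.502). MMP2, MMP9 and MMP14, which code for gelatinases and a membrane-bound activator, differed by −0.13, 0.07 and 0.05. The means of MMP1 were 5.66, 7.40 and 9.53 at 1, 3 and 6 h of IL-1β alone, and the test of the difference between its 2 successive changes did not pass (0.39, adjusted p = 0.912).

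**Figure D1:**
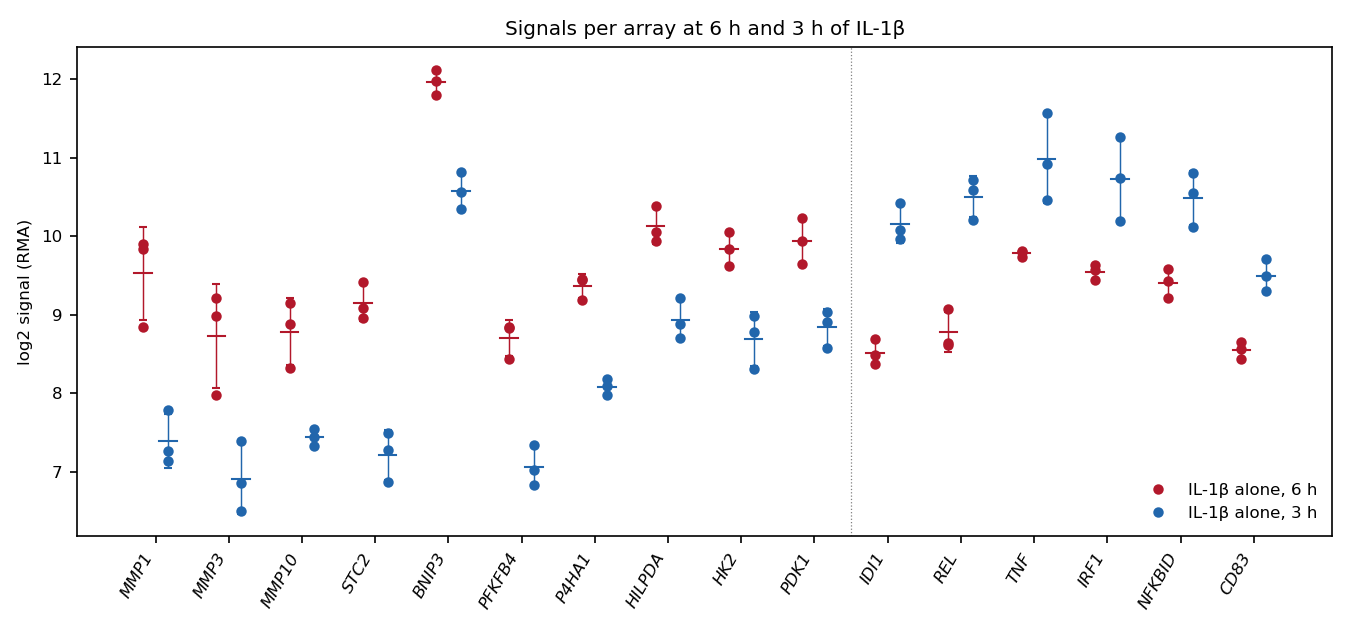
Log2 signal (RMA) of 16 genes in the 3 arrays of IL-1β alone at 6 h (red) and the 3 arrays at 3 h (blue), one point per array, with the mean as a horizontal line and ± 1 SD as a bar. In the 10 genes left of the dotted line every 6 h array lies above every 3 h array, and in the 6 genes right of it every 6 h array lies below every 3 h array.

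Among the gene lists examined, that of hypoxia-response genes held the most rises. Of 49 genes on the list, 44 were tested. Of these, 7 were higher and 0 lower at 6 h, beside 0.391% and 0.145% of all genes. The median difference over the 44 was 0.28, against −0.00 over all genes. In 35 of 44 the difference was positive, as in 6879 of 13805 genes. With the 1 h group left out of the fit 12 were higher and 0 lower, beside 1.66% and 1.27% of all genes. Without replicate 2 of that group alone the counts were also 12 and 0. Stanniocalcin 2, STC2, which codes for a secreted glycoprotein, had 9.42, 8.96 and 9.09 at 6 h, against 7.28, 6.87 and 7.50 at 3 h. All 6 h arrays of STC2 were far above those at 3 h, and the difference of 1.94 ± 0.17 corresponded to 3.84-fold (adjusted p = 2.55e-05). PFKFB4, a bifunctional kinase and phosphatase that sets the level of an activator of phosphofructokinase, had 8.85, 8.44 and 8.83 at 6 h, against 7.02, 6.83 and 7.35 at 3 h. Its signal at 3 h was below that at 1 h in mean (7.06 against 7.45), so the 6 h level was the highest of the series. PFKFB4 rose by 1.64 ± 0.16 (adjusted p = 6.92e-05).

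BNIP3, a receptor on the outer mitochondrial membrane that directs mitochondria to autophagy, had 12.12, 11.80 and 11.98 at 6 h, against 10.35, 10.57 and 10.82 at 3 h. The gap between the groups was wider than the range within either, and the 3 h mean was close to that at 1 h (10.58 and 10.60). The difference was 1.39 ± 0.13 (adjusted p = 4.74e-05). P4HA1, a catalytic subunit of the collagen prolyl hydroxylase, had 9.46, 9.19 and 9.45 at 6 h, against 7.98, 8.09 and 8.18 at 3 h. Both groups were tight, and P4HA1 rose by 1.28 ± 0.18 (adjusted p = 0.0034). Its paralogue P4HA2 had 10.23, 9.93 and 10.12 at 6 h, against 9.06, 9.26 and 9.37 at 3 h, a difference of 0.86 ± 0.12 (adjusted p = 0.00255). HILPDA, a lipid droplet protein that restrains triglyceride breakdown, had 10.39, 9.94 and 10.06 at 6 h, against 8.89, 8.70 and 9.21 at 3 h. Its groups were separate as well, and HILPDA rose by 1.2 ± 0.17 (adjusted p = 0.0034). STC1, the paralogue of STC2, averaged 7.52 at 6 h and 6.54 at 3 h (adjusted p = 0.0204) and completes the 7.

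Other hypoxia-response genes did not pass the test. KDM3A, a histone demethylase, differed by 1.19 (adjusted p = 0.0623). ADM, which codes for the vasodilator peptide adrenomedullin, differed by 0.58 (adjusted p = 0.231), and WSB1, a ubiquitin ligase subunit, by 0.90 (adjusted p = 0.36). VEGFA, the vascular growth factor, had 10.33, 9.84 and 10.33 at 6 h, against 10.05, 10.63 and 10.31 at 3 h. The VEGFA groups overlapped, with a difference of −0.16 (adjusted p = 0.921). ANGPTL4, a secreted inhibitor of lipoprotein lipase, had the most negative value of the list at −0.90 (adjusted p = 0.291). The transcripts of HIF1A and EPAS1, which encode the oxygen-regulated subunits, differed by −0.00 and 0.24. Those of EGLN1 and EGLN3, oxygen sensors that mark these subunits for destruction, differed by 0.35 and −0.13. The EGLN1 groups did not overlap, and its difference did not pass (limma adjusted p = 0.248).

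On the list of glycolysis and glucose transport the genes that rose were HK2, PDK1 and ENO2, while PFKFB4 stood on the hypoxia list. Of 25 tested genes of glycolysis and glucose transport, 3 were higher and 0 lower, beside 0.391% and 0.145% of all genes, with a median difference of 0.14. Without the 1 h group the counts were 6 higher and 2 lower, beside 1.66% and 1.27% of all genes. The count of genes higher was 1 without replicate 2 of the 3 h group or without replicate 1 or 3 of the 6 h group, and 5 without replicate 1 or 2 of the 1 h group. Hexokinase 2, HK2, which catalyses the first step of glycolysis, had 9.84, 9.62 and 10.05 at 6 h, against 8.98, 8.31 and 8.78 at 3 h. HK2 rose by 1.15 ± 0.18 (adjusted p = 0.00515), and its means at 1, 3 and 6 h were 7.56, 8.69 and 9.84. PDK1, the kinase that inhibits pyruvate dehydrogenase, had 9.94, 9.65 and 10.23 at 6 h, against 8.91, 8.58 and 9.04 at 3 h. The groups of PDK1 did not overlap, and the difference was 1.10 ± 0.20 (adjusted p = 0.0205). ENO2, an enolase isoform, had 9.94, 9.49 and 9.64 at 6 h, against 8.51, 8.98 and 8.64 at 3 h. Its difference of 0.98 ± 0.21 passed the threshold narrowly (adjusted p = 0.0467) and was called in only 4 of the 18 fits that leave out an array.

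SLC2A1, the glucose transporter GLUT1, had 11.87, 11.62 and 11.81 at 6 h, against 10.82, 11.06 and 11.02 at 3 h. These arrays did not overlap, and the difference of 0.80 ± 0.19 missed the threshold (adjusted p = 0.0675), although it passed without the 1 h group (adjusted p = 0.00692). The abundant enzymes of the pathway differed less: LDHA, lactate dehydrogenase A, by 0.19 (adjusted p = 0.692), PGK1 by 0.23, ALDOA by 0.07 and GAPDH by −0.00. The lowest values of the list were those of PDK2, a second pyruvate dehydrogenase kinase, at −0.90 (adjusted p = 0.134) and of PFKM, the muscle phosphofructokinase, at −0.67 (adjusted p = 0.108), neither of which passed. Outside this list, the lipid droplet coat gene PLIN2 averaged 8.51 at 6 h and 7.85 at 3 h, a difference of 0.66 (adjusted p = 0.0263).

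**Figure D2:**
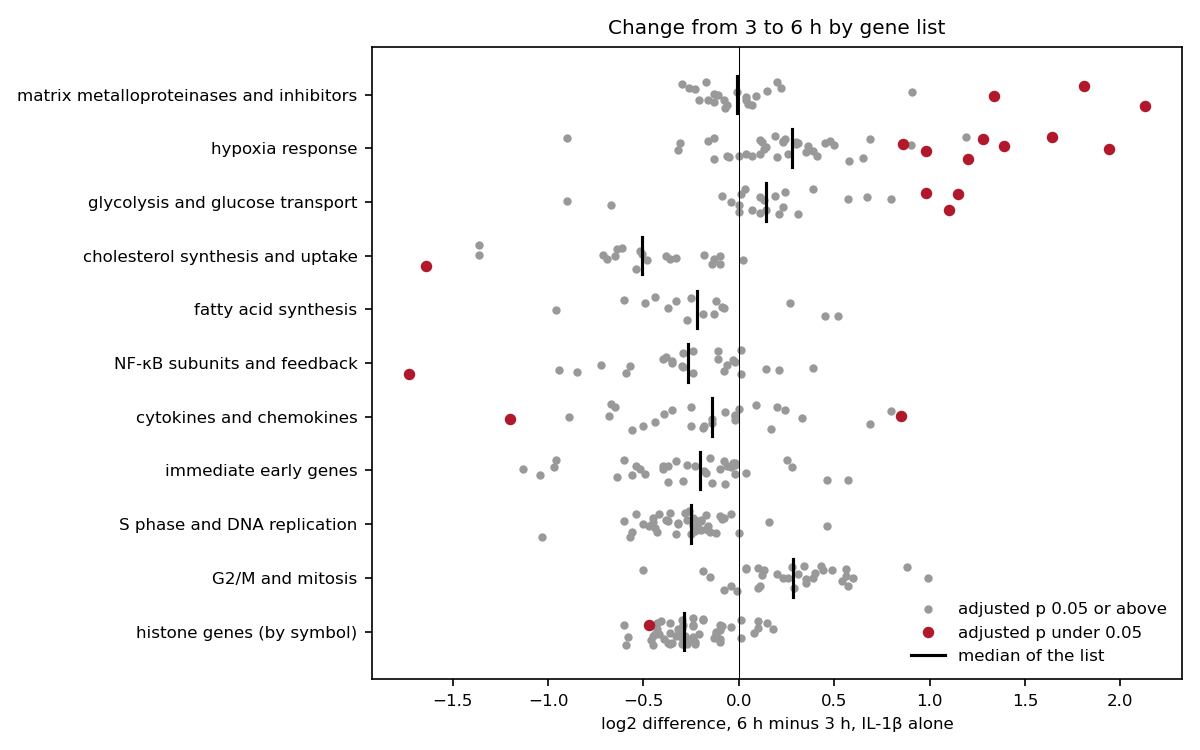
Log2 difference between 6 and 3 h of IL-1β alone for each tested member of 11 gene lists (rows), with members called at an adjusted p under 0.05 in red, all others in grey and the list median as a black bar. The hypoxia and glycolysis rows extend to the right with 7 and 3 called genes, the cholesterol row lies left of 0 except for 1 gene, and the metalloproteinase row is centred on 0 with 3 called genes at its right end.

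Promoter letters of the named genes were read from the RefSeq table (GRCh38.p14), which covers 250 bases before to 50 bases after each start, and the core of the hypoxia-response element was searched as ACGTG on both strands. Of the 54 genes that rose, 42 had promoters in the table, and 27 of these held the core in at least 1 promoter (64.3%). Of the 20 that fell, 15 had promoters, and 2 held it (13.3%). The share was 31.1% of 10852 tested genes and 24.9% of all 27305 genes in the table. Counted per promoter, it was 46.5% for the genes that rose, 8.0% for those that fell, 24.7% for tested genes and 21.4% for all. The core is contained in CACGTG, a motif read by other factors, which 26.2% of the genes that rose, none of the 15 that fell and 12.1% of tested genes held. The windows below come from 4 of the genes that rose, chosen to show where the letters lie, with the core (or CACGTG) in capitals. In BNIP3 the stretch lies 112 to 152 bases before the start, at chr10:131982035-131982075 on the minus strand. In P4HA1 it lies 64 to 104 bases before the start, at chr10:73096930-73096970 on the minus strand. In HK2 it lies 26 to 66 bases before the start, at chr2:74834061-74834101 on the plus strand. In ENO2 it lies 96 to 136 bases before the start, at chr12:6914444-6914484 on the plus strand. A match is a run of letters and no evidence of a bound site.
BNIP3: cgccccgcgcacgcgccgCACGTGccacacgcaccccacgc
P4HA1: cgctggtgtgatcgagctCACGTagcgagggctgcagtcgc
HK2: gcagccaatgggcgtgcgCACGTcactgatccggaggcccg
ENO2: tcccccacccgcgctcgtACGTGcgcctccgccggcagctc

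Sterol synthesis genes lay lower at 6 h as a list, with 1 of them past the test. IDI1, the isomerase that makes both building blocks of isoprenoids available, had 8.49, 8.37 and 8.69 at 6 h, against 9.96, 10.43 and 10.08 at 3 h. Every 6 h array was more than 1 log2 unit below every 3 h array. IDI1 fell by 1.64 on the log2 scale (SE 0.20, 3.11-fold, adjusted p = 0.00082). Of the 21 tested genes of cholesterol synthesis and uptake, 0 were higher and 1 was lower, beside 0.391% and 0.145% of all genes. In 20 of 21 the difference was negative, as in 6926 of 13805 genes, and the median was −0.51, against −0.00 over all genes. Without the 1 h group 9 of the 21 were lower and 0 higher, beside 1.27% and 1.66% of all genes. Without its replicate 1 or 2 the count lower was 8, and without replicate 1 of the 3 h group it was 3. HMGCS1, the synthase ahead of the rate-limiting reductase, and STARD4, a sterol carrier, both differed by −1.36 (adjusted p = 0.0805 each). MVD and DHCR7, later enzymes of the route, differed by −0.65 and −0.69, and SQLE, squalene epoxidase, by −0.18 (adjusted p = 0.795). The regulators SREBF2 and INSIG1 differed by −0.48 and −0.36. The other 6 members of the list, the rate-limiting reductase among them, were not analysed here.

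Genes of fatty acid synthesis gave 0 calls among 16 tested members in limma, with a median of −0.22. At an unadjusted p under 0.05, 1 was higher and 5 lower, beside 5.36% and 4.83% of all genes. Without the 1 h group 3 were lower, beside 1.27% of all genes. SCD, the stearoyl-CoA desaturase, had 11.60, 11.65 and 11.82 at 6 h, against 12.09, 12.23 and 12.22 at 3 h. The groups did not overlap and the difference was −0.49 (adjusted p = 0.0805). ACSS2, which makes acetyl-CoA from acetate, differed by −0.96 (adjusted p = 0.0988), and FADS1, a desaturase of polyunsaturated fatty acids, by −0.44 (adjusted p = 0.198).

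Several of the largest falls were in genes of inflammatory signalling, which are described here because the rule names the largest falls. On the lists, REL was the call among NF-κB genes, TNF was the call lower among cytokines and IRF1 was the call among interferon-regulated genes, and NFKBID, CD83, TRAF3IP2 and NFATC1 stood on none of them. REL, the c-Rel subunit of NF-κB, had 8.64, 8.62 and 9.07 at 6 h, against 10.59, 10.72 and 10.21 at 3 h. All 6 h arrays lay more than 1 log2 unit below those at 3 h. The difference was −1.73 ± 0.36 (adjusted p = 0.0434); the spread of REL over the 1 h arrays was wide (SD 1.01), and REL was called in 5 of the 18 fits that leave out an array. NFKBID, a nuclear IκB protein, had 9.21, 9.43 and 9.58 at 6 h, against 10.12, 10.80 and 10.55 at 3 h, without overlap. It fell by 1.08 (SE 0.18, adjusted p = 0.0097). IRF1, a transcription factor of the interferon response, had 9.63, 9.45 and 9.57 at 6 h, against 10.19, 11.26 and 10.74 at 3 h. IRF1 fell by 1.18 (adjusted p = 0.0277), with a much wider spread at 3 h (SD 0.54) than at 6 h (SD 0.10).

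TNF, the cytokine tumour necrosis factor, had 9.74, 9.80 and 9.81 at 6 h, against 10.46, 11.57 and 10.92 at 3 h. The 6 h arrays were nearly equal and all lay below the 3 h arrays, of which replicate 2 was the highest. TNF fell by 1.2 (SE 0.25, adjusted p = 0.0434 in limma). It was called in only 5 of the 18 fits that leave out an array. Without replicate 2 of the 3 h group the adjusted p was highest, at 0.281. CD83, a membrane glycoprotein of activated immune cells, had 8.57, 8.44 and 8.65 at 6 h, against 9.30, 9.71 and 9.49 at 3 h, and fell by 0.95 (adjusted p = 0.0149). TRAF3IP2, an adaptor of the IL-17 receptor, averaged 8.56 ± 0.27 at 6 h and 9.48 ± 0.37 at 3 h (SD, n = 3 each; limma adjusted p = 0.0195). NFATC1, a calcium-regulated transcription factor, averaged 9.49 ± 0.05 at 6 h and 10.48 ± 0.24 at 3 h (SD, n = 3 each; limma adjusted p = 0.032).

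Most members of the NF-κB list were not called. Of 26 tested subunits and feedback genes, 0 were higher and 1 was lower, beside 0.391% and 0.145% of all genes. In 21 of 26 the difference was negative, as in 6926 of 13805 genes, and the median was −0.26. Without the 1 h group 8 were lower and 0 higher, beside 1.27% and 1.66% of all genes. Between 0 and 5 were lower with 1 array left out, the most without replicate 1 of the 1 h group. NFKBIA, the inhibitor IκBα, had 12.92, 12.80 and 12.88 at 6 h, against 13.08, 13.42 and 13.23 at 3 h. These groups did not overlap, yet the difference of −0.38 did not pass (adjusted p = 0.126). NFKBIE differed by −0.85 (adjusted p = 0.0645), ZC3H12A, an endonuclease of cytokine mRNA, by −0.94 (adjusted p = 0.0713), and TNFAIP3, a ubiquitin-editing inhibitor of the pathway, by −0.40 (adjusted p = 0.664). RELA, the p65 subunit, differed by −0.03.

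Cytokines and chemokines held 1 call in each direction. Of 29 tested, 1 was higher and 1 was lower, beside 0.391% and 0.145% of all genes, and the median difference was −0.14. Without the 1 h group 2 were higher and 3 lower, beside 1.66% and 1.27% of all genes. With 1 array left out between 0 and 2 were higher, with 0 without replicate 2 or 3 of the 3 h group or replicate 1 or 3 of the 6 h group, and between 0 and 3 were lower, with 3 without replicate 1 or 2 of the 1 h group. The gene that rose was CXCL6, a chemokine that attracts neutrophils, with 9.18, 8.65 and 9.40 at 6 h, against 8.26, 8.15 and 8.26 at 3 h. Its 3 h arrays were nearly equal and all below the 6 h arrays, and the difference was 0.85 ± 0.16 (adjusted p = 0.0237). IL6 had 12.68, 12.57 and 12.75 at 6 h, against 12.58, 12.88 and 12.61 at 3 h, and these values overlapped. The differences of IL6, CXCL8 and CCL2 were −0.02, −0.25 and −0.25 (adjusted p = 0.995, 0.611 and 0.732 in limma), and the 95% interval of the IL6 difference ran from −0.32 to 0.28. IL1B itself had 8.78, 7.89 and 9.11 at 6 h, against 8.58, 9.46 and 9.25 at 3 h, so its groups overlapped (−0.50, adjusted p = 0.566). The adhesion molecule ICAM1 averaged 12.77 ± 0.04 at 6 h and 13.09 ± 0.07 at 3 h (SD, n = 3 each; difference −0.32, limma adjusted p = 0.331).

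The κB motif was searched in the same promoters on both strands, as GGG, any 2 bases, TT, any base and CC. It occurred in 4 of 42 genes that rose (9.52%), in 4 of 15 that fell (26.7%) and in 8.6% of tested genes. The sterol element, searched as TCACNCCAC, occurred in 2.38%, in none and in 1.46%. The windows of REL, which fell, and CXCL6, which rose, are shown because both hold the κB letters, in capitals, close to the start. The REL stretch lies 22 to 62 bases before the start, at chr2:60881512-60881552 on the plus strand, and that of CXCL6 lies 66 to 106 bases before it, at chr4:73836572-73836612 on the plus strand. Nothing about binding follows from these letters.
REL: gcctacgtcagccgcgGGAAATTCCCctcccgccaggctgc
CXCL6: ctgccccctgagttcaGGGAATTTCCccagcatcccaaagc

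Further falls came from genes of no common list. KDM6B, a demethylase of a repressive histone mark, had 8.91, 8.94 and 9.13 at 6 h, against 10.00, 10.79 and 10.05 at 3 h. TMEM88, a membrane protein that restrains Wnt signalling, had 7.97, 7.86 and 7.88 at 6 h, against 8.93, 9.36 and 9.0 at 3 h. In both genes replicate 2 was the highest array at 3 h and no array overlapped. KDM6B fell by 1.29 (adjusted p = 0.0434) and TMEM88 by 1.2 (adjusted p = 0.0142). KDM6B was called in 6 of the 18 fits that leave out an array, and TMEM88 in 14. They are close neighbours on chromosome 17 in the RefSeq order, with 1 uncharacterised locus between them that was not tested. Their tested outer neighbours, EFNB3 and NAA38, differed by −0.38 and −0.21 and were not called. GSTA4, a glutathione transferase that clears lipid aldehydes, averaged 5.70 ± 0.13 at 6 h and 6.53 ± 0.16 at 3 h (SD, n = 3 each; limma adjusted p = 0.0142). SDC2, a heparan sulphate proteoglycan, averaged 8.32 ± 0.19 at 6 h and 9.03 ± 0.09 at 3 h (SD, n = 3 each; limma adjusted p = 0.0174). NIPSNAP1, USP43 and TMEM217 differed by −0.86, −0.85 and −0.84, with adjusted p between 0.0174 and 0.0345 in limma. The 6 h means of GSTA4 and TMEM217, 5.70 and 6.14, were under the filter level of 6.193. Both genes passed the filter through their averages over all 18 arrays. NID1, the basement membrane protein nidogen, fell by 0.58 (adjusted p = 0.0483) and was called in 3 of the 18 fits that leave out an array.

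The medians of 2 cell cycle lists lay on opposite sides of 0, without a call. Of 43 genes of S phase and DNA replication, 41 had a negative difference, as had 6926 of 13805 genes, and the median was −0.25. In limma 0 were called. At an unadjusted p under 0.05, 1 was higher and 15 lower, beside 5.36% and 4.83% of all genes. CCNE2, cyclin E2, had 8.11, 8.14 and 8.95 at 6 h, against 9.49, 9.59 and 9.20 at 3 h. The third 6 h array lay near the 3 h level, and the difference was −1.03 (adjusted p = 0.0538). MCM4, a subunit of the replicative helicase, differed by −0.45 (adjusted p = 0.113). Of 34 genes of G2/M and mitosis, 28 had a positive difference, as had 6879 of 13805 genes, and the median was 0.29. Again 0 were called. At an unadjusted p under 0.05, 8 were higher and 0 lower, beside 5.36% and 4.83% of all genes. PLK1, a mitotic kinase, averaged 11.60 ± 0.362 at 6 h and 10.73 ± 0.293 at 3 h (SD, n = 3 each), a difference of 0.88 without overlap (limma adjusted p = 0.107). CCNB1, cyclin B1, differed by 0.56 (adjusted p = 0.185). AURKA, another mitotic kinase, had 10.50, 10.96 and 10.49 at 6 h, against 10.22, 8.67 and 10.10 at 3 h, so replicate 2 stood far below the other 3 h arrays (0.99, adjusted p = 0.203). Leaving out each array in turn moved the 2 medians between −0.34 and −0.19 and between 0.17 and 0.43. Calls did appear in other fits. Without the 1 h group S phase held 1 gene higher and 6 lower and G2/M 2 higher, beside 1.66% of all genes higher and 1.27% lower. Without replicate 2 of that group alone S phase held 1 higher and 4 lower and G2/M 2 higher.

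Histone and small RNA genes had medians below 0. Over all genes 0.145% were called lower, and 1.27% without the 1 h group. Of 58 histone genes, 1 was lower and 0 higher, with a median of −0.29. The called one, H2AC6, fell by 0.47 (adjusted p = 0.0467) and was called in 3 of the 18 fits that leave out an array. At an unadjusted p under 0.05, 25 of the 58 were lower and 0 higher, where 4.83% of all genes were lower. Without the 1 h group 7 were lower, with 1 array left out between 0 and 5, the most without replicate 2 of the 1 h group, and the count was 0 without any 1 array of the 6 h group or replicate 2 or 3 of the 3 h group. Of 144 small nuclear and nucleolar RNA genes, 1 was lower and 0 higher, with a median of −0.27. Without the 1 h group 4 were lower, and with 1 array left out between 0 and 5, with 5 without replicate 1 of the 3 h group and 3 without replicate 1 or 2 of the 1 h group. SNORA10 fell by 0.68 (adjusted p = 0.0403) and was called in 7 of the 18 fits that leave out an array. The small RNA median was 0.00 without replicate 2 of the 3 h group, so it rested on that array. Ribosomal protein genes, by contrast, had a median of −0.03 over 63 members with 0 calls in limma (1 higher and 0 lower at an unadjusted p under 0.05).

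Some of the genes that rose had a lower mean at 3 h than at 1 h. HES1, ID2, TFAP2A and AJUBA were among those with the smallest p in the test of successive changes given below, which selects this pattern, so it is a description. HES1, a repressor downstream of Notch, had 9.09, 8.86 and 8.70 at 6 h, against 7.83, 7.88 and 8.30 at 3 h. ID2, an inhibitor of basic helix-loop-helix factors, had 8.97, 8.71 and 8.95 at 6 h, against 8.01, 8.20 and 8.39 at 3 h. TFAP2A, an AP-2 family factor, had 9.73, 9.52 and 9.73 at 6 h, against 8.76, 8.99 and 8.99 at 3 h. None of the 3 genes overlapped between times. HES1 rose by 0.88 (adjusted p = 0.019), ID2 by 0.68 (adjusted p = 0.025) and TFAP2A by 0.75 (adjusted p = 0.0263). Their means at 1, 3 and 6 h were 10.40, 8.0 and 8.88 for HES1, 9.92, 8.20 and 8.87 for ID2, and 10.43, 8.91 and 9.66 for TFAP2A, so each mean at 6 h lay between those at 3 and 1 h.

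LRIG3, a transmembrane protein with leucine-rich repeats, had 8.30, 8.24 and 8.16 at 6 h, against 6.90, 6.76 and 7.11 at 3 h. AJUBA, a LIM protein that inhibits Hippo signalling, had 9.15, 9.13 and 8.92 at 6 h, against 7.59, 8.10 and 7.82 at 3 h. Both genes were separate by a wide margin, with rises of 1.31 ± 0.20 and 1.23 ± 0.18 (adjusted p = 0.00515 and 0.00461). PTCH1, the Hedgehog receptor, averaged 8.08 at 6 h and 7.10 at 3 h (adjusted p = 0.00461), and 8.38 at 1 h. The corepressor TLE1 averaged 9.16 at 6 h and 8.33 at 3 h (adjusted p = 0.00906), and JARID2, an accessory protein of the Polycomb repressive complex, 8.26 at 6 h and 7.39 at 3 h (adjusted p = 0.0263). Rises of at least 2-fold were also measured for YEATS2, a reader of acylated histones (1.07, adjusted p = 0.0368), DNAAF2, a factor in dynein arm assembly (1.01, adjusted p = 0.0142), and C9orf85 (1.01, adjusted p = 0.0145). The C9orf85 mean at 3 h, 5.80, was under the filter level of 6.193. PTCH1, TLE1, JARID2, PLIN2, STC1, POFUT4, DIPK2A and MTSS1 lie outside the rule for named genes and were chosen after their values were seen. The same holds for the list members MMP2, MMP7, MMP9, MMP14, KDM3A, WSB1, ANGPTL4, HIF1A, EPAS1, EGLN1, EGLN3, PGK1, ALDOA, GAPDH, PDK2, PFKM, HMGCS1, STARD4, MVD, DHCR7, SREBF2, INSIG1, NFKBIE and RELA.

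**Figure D3:**
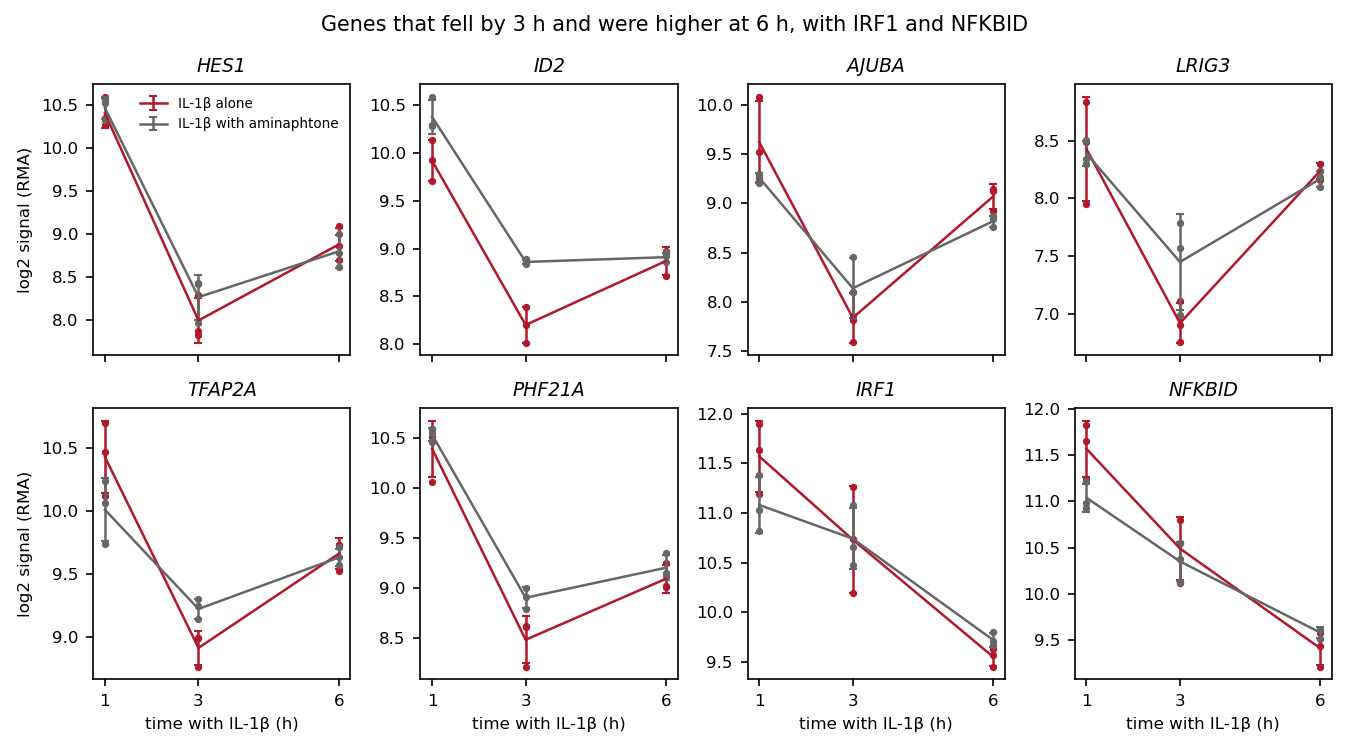
Log2 signal (RMA) of 8 genes at 1, 3 and 6 h of IL-1β alone (red) and of IL-1β with aminaphtone (grey), one point per array, lines through the means and bars of ± 1 SD. HES1, ID2, AJUBA, LRIG3, TFAP2A and PHF21A are lowest at 3 h in IL-1β alone, whereas IRF1 and NFKBID have means that are lower at each later time.

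A test of the difference between the 2 successive changes in IL-1β alone, 3 to 6 h minus 1 to 3 h, called 285 transcript clusters (1.8% of those tested), 206 with a more positive second change (1.3%) and 79 with a more negative one (0.5%). Both changes use the 3 h arrays, so a high or low 3 h value moves them in opposite directions, and the widely spread 1 h arrays enter too. With only the arrays of these 3 times in the fit 43 were called. The count was 937 without replicate 1 and 593 without replicate 2 of the 1 h group, 142 without replicate 1 and 157 without replicate 3 of the 3 h group, and 176 without replicate 1 of the 6 h group. The difference was 3.28 for HES1 (adjusted p = 5.56e-06), 2.40 for ID2 (adjusted p = 1.72e-05) and 3.01 for AJUBA (adjusted p = 6.79e-05). Among the 10 smallest p-values were also early genes whose means were far lower at 3 h than at 1 h. NR4A1, an orphan nuclear receptor of the early response, averaged 12.47, 8.52 and 7.96 at 1, 3 and 6 h, and NR4A2, its paralogue, 11.32, 7.05 and 6.99. For neither did the 6 h level differ from the 3 h level past the threshold (adjusted p = 0.268 and 0.989). In the whole list of immediate early genes 0 of 36 were called between 6 and 3 h in limma, and the median was −0.21. At an unadjusted p under 0.05, 2 were higher and 11 lower, beside 5.36% and 4.83% of all genes. ZFP36, which destabilises cytokine mRNAs, came closest to the threshold with a difference of −0.96 (adjusted p = 0.0569). PRDM1, a transcriptional repressor, was at 9.39, 6.93 and 7.36, and NAV3, a microtubule-associated protein, at 7.37, 10.89 and 10.39.

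The same interval was measured in cells that also received aminaphtone, on 6 arrays that share none with the 6 described so far. There, 42 transcript clusters (0.266%) were called, 4 higher (0.0253%) and 38 lower (0.241%) at 6 h. With the 1 h group of IL-1β alone left out of the fit, 406 were called. Leaving out 1 array gave between 4 calls, without replicate 2 of the 3 h aminaphtone group, and 260, without replicate 2 of the 1 h group of IL-1β alone, and moved the count by more than 1.5 times for all but 2 of the 18 arrays. The 54 genes that rose in IL-1β alone had a median change of 0.86 there, and of 0.32 with aminaphtone. In 51 of the 54 the change was also positive with aminaphtone, beside 6938 of 13805 genes there. MMP1, STC2 and MTSS1, 3 of the 54, were called there in the same direction, beside 0.029% of all genes called higher. The 20 genes that fell had a median of −0.89 in IL-1β alone and −0.81 with aminaphtone. All 20 changes were negative with aminaphtone, beside 6867 of 13805 genes there. With aminaphtone 11 of the 20 were called, beside 0.254% of all genes called lower. Because these genes were chosen for their change in IL-1β alone, the choice favours a larger change there, and the counts are descriptions.

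**Figure D4:**
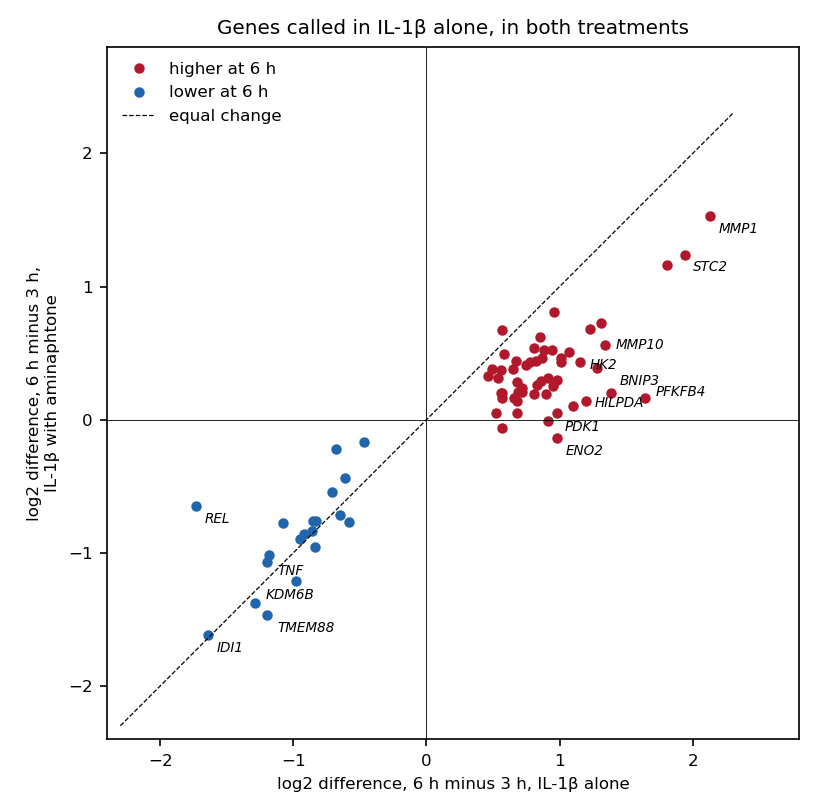
Log2 difference between 6 and 3 h in IL-1β alone (horizontal) against that in IL-1β with aminaphtone (vertical) for the 74 genes called in IL-1β alone, red for the 54 higher and blue for the 20 lower at 6 h, with the dashed line of equal change. Of the genes that rose, 53 of 54 lie below the dashed line, and those that fell lie on both sides of it, with REL the farthest above.

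The change from 3 to 6 h itself differed between IL-1β alone and IL-1β with aminaphtone in 2 transcript clusters (0.0127%), PFKFB4 and BNIP3. At an unadjusted p under 0.05 there were 162 (1.03%). PFKFB4 with aminaphtone had 7.42, 7.27 and 7.17 at 6 h, against 7.19, 7.19 and 6.99 at 3 h. Its change was 1.64 in IL-1β alone and 0.16 with aminaphtone, and the difference was 1.48 ± 0.23 (adjusted p = 0.0474). BNIP3 with aminaphtone had 10.86, 10.57 and 10.45 at 6 h, against 10.47, 10.46 and 10.34 at 3 h. For BNIP3 the changes were 1.39 in IL-1β alone and 0.20 with aminaphtone, and the difference was 1.18 ± 0.18 (adjusted p = 0.0474). Both calls lie just inside the threshold, and the count was 0 without the filter on low signals, with each array centred on its median and with a fit of only these 12 arrays. With 1 array left out PFKFB4 was called in 4 of 18 fits and BNIP3 in 5, with adjusted p up to 0.265.

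With aminaphtone the median of the hypoxia list was near 0 and that of the glycolysis list was slightly below 0, over members that differed in both directions. The median over the 44 hypoxia genes was 0.01 there, against 0.28 in IL-1β alone, and 12 of the 44 had an unadjusted p under 0.05 for the difference between treatments, as had 147 of 13805 genes (1.06%). Over the 25 glycolysis genes the medians were 0.14 in IL-1β alone and −0.11 with aminaphtone, with 9 of 25 at an unadjusted p under 0.05. HILPDA changed by 1.2 in IL-1β alone and by 0.14 with aminaphtone, PDK1 by 1.10 and 0.10, ENO2 by 0.98 and −0.14, and SLC2A1 by 0.80 and 0.11. None of these 4 differences passed after adjustment over all clusters. Other members had large values with aminaphtone as well: STC2 rose there by 1.24 (adjusted p = 0.00472) and ANGPTL4 fell by 1.7 (adjusted p = 0.0356), against 1.94 and −0.90 in IL-1β alone. KDM3A, PDK2 and PFKM differed with aminaphtone by 0.75, −1.11 and −0.69 and were not called (adjusted p = 0.331, 0.0721 and 0.119). By contrast, the cholesterol list had medians of −0.51 in IL-1β alone and −0.56 with aminaphtone, with 0 of 21 genes at an unadjusted p under 0.05 for the difference in limma and 0 after adjustment. IDI1 changed by −1.64 in IL-1β alone and −1.62 with aminaphtone, a difference of −0.02 ± 0.285. The S phase medians were −0.25 in IL-1β alone and −0.27 with aminaphtone, and the G2/M medians 0.29 and 0.33. MMP1 changed by 2.13 in IL-1β alone and 1.53 with aminaphtone, a difference of 0.60 ± 0.31 that did not pass (unadjusted p = 0.07). MMP3 changed by 1.81 in IL-1β alone and 1.16 with aminaphtone (unadjusted p = 0.0963 for the difference). For MMP10 the changes were 1.34 in IL-1β alone and 0.56 with aminaphtone, a difference of 0.78 with an unadjusted p of 0.00505 that did not pass after adjustment.

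**Figure D5:**
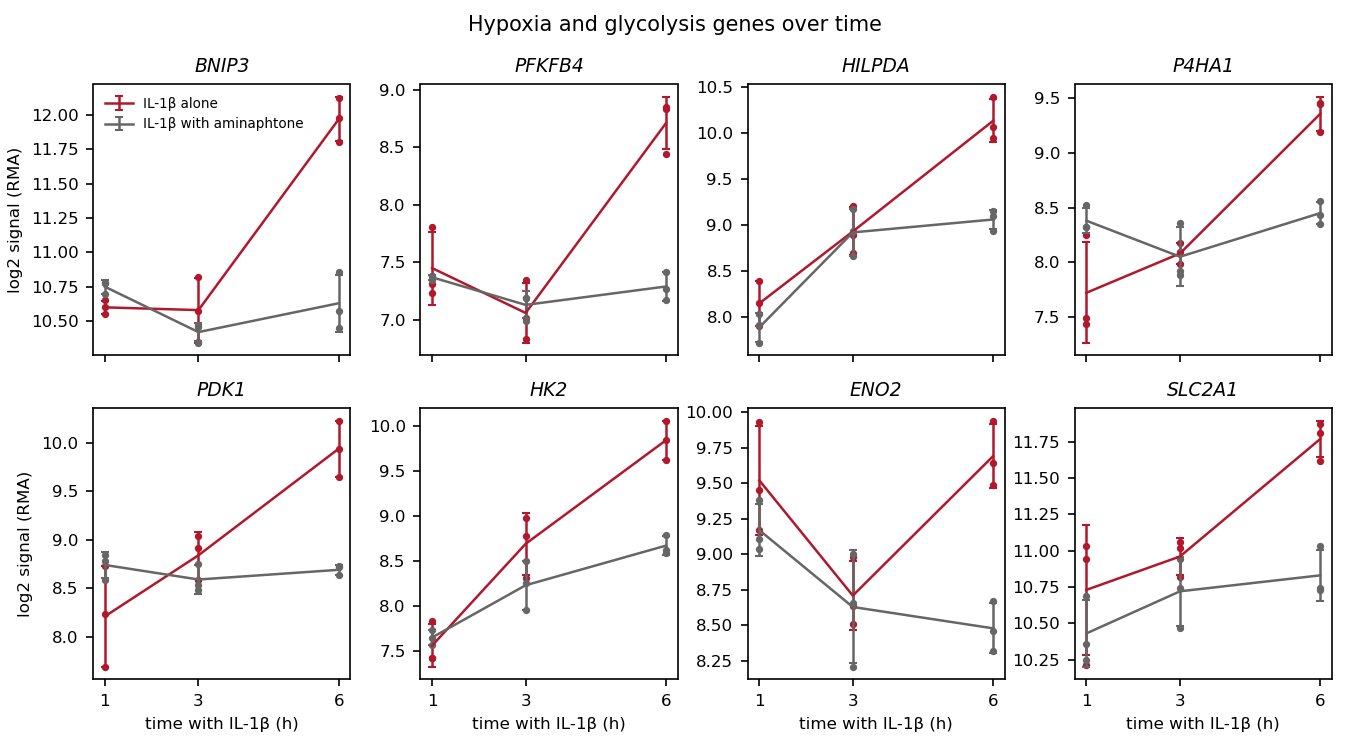
Log2 signal (RMA) of 8 hypoxia and glycolysis genes at 1, 3 and 6 h of IL-1β alone (red) and of IL-1β with aminaphtone (grey), one point per array, lines through the means and bars of ± 1 SD. In all 8 genes the 3 h points of both treatments overlap or lie close together, and at 6 h the arrays of IL-1β alone lie above those with aminaphtone.

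The remaining lists held few or no calls. Among 30 interferon-regulated genes IRF1 was the only one called, with a median of −0.04. In the lists of adhesion molecules, G1 regulators, the unfolded protein and integrated stress response, heat shock proteins, nuclear-encoded oxidative phosphorylation, growth factors, haemostasis, p53 targets, the SOCS and STAT3 axis, mRNA decay and the MYC network, 0 members were called in limma, and the medians ran from −0.17 for p53 targets to 0.12 for the MYC network. At an unadjusted p under 0.05 in limma, 5.36% of all genes were higher and 4.83% lower. Those lower were 5 of 20 p53 targets, 4 of 17 heat shock genes, 4 of 18 adhesion genes and 3 of 14 G1 regulators. The stress response held 7 of 45 lower, oxidative phosphorylation 3 of 35, SOCS and STAT3 2 of 18 and growth factors 2 of 33. The mRNA decay list held 2 higher and 2 lower of 22, haemostasis 3 and 0 of 25 and the MYC network 3 and 0 of 26. Between 0 and 4 genes of each list were higher, with 4 of 45 in stress response and 4 of 33 in growth factors. Without the 1 h group 1.66% of all genes were higher and 1.27% lower. The stress response list then held 2 higher and 4 lower, growth factors 3 and 2, and haemostasis 3 higher. There were also 2 lower in mRNA decay, 1 lower among heat shock proteins and 1 higher in the SOCS and STAT3 axis. With only the 6 arrays compared, stress response and mRNA decay each held 2 lower, and haemostasis held 1 higher, SERPINE2. In the stress response list, PSPH and PHGDH, enzymes of serine synthesis, differed by −0.86 and −0.72 (adjusted p = 0.0698 and 0.117), and HERPUD1, a factor in protein degradation at the endoplasmic reticulum, by 0.50 (adjusted p = 0.0613). Of the heat shock genes, DNAJB1, a cochaperone, differed by −0.79 (adjusted p = 0.083). The autophagy list (31 tested) and the apoptosis list (21 tested) each held 1 gene higher, which was BNIP3 in both. The list of YAP and TEAD targets (22 tested) held AJUBA. The antioxidant list (32 tested) held 1 gene lower, GSTA4, and the matrix list (27 tested) NID1. The TGF-β and BMP list (29 tested) held 1 gene higher, ID2. Of all genes, 0.391% were called higher and 0.145% lower. At an unadjusted p under 0.05 in limma, 1 of the 32 antioxidant genes was higher and 9 lower. Without the 1 h group the antioxidant list held 1 higher and 4 lower, and the YAP and TEAD list 1 higher and 2 lower. The autophagy list then held 2 higher, and the matrix and TGF-β lists 1 in each direction.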

How the data were processed

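The authors deposited log2 signals per transcript cluster from Affymetrix Human Gene 1.0 ST arrays, made with Affymetrix Expression Console and RMA per the submitters' processing notes. Tool versions and whether all 18 arrays were normalized together are not given in the sources used here. Of 28869 transcript clusters, 21062 carried a gene symbol, 19310 a single one, 1752 several and 7807 none in the platform annotation; 19279 single symbols matched RefSeq. Clusters with a mean log2 signal over 18 arrays above 6.193 (25th percentile) were tested, 15796 in all, and a gene with several was represented by the one with the highest mean. Differences were fitted with limma 3.58.1 in R 4.3.3 (1 mean per group, 3 arrays in each of 6 groups, empirical Bayes, Benjamini-Hochberg, threshold 0.05); tables and figures used Python 3.11.15, pandas 2.3.3 and matplotlib 3.10.9. The number of arrays limits the precision. On simulated data for 6 h against 3 h in IL-1β alone (15796 clusters), 34.3%, 86.6% and 98.5% of differences of 0.5, 1 and 2 were recovered, with 10 false calls. The simulated noise was independent between clusters and arrays, with the same spread in every group. In the real arrays, 1 pattern shared across clusters held 59.9% of the variation around the group means. The simulated rates therefore cannot be carried over to the real arrays. Named genes were the 15 largest rises and falls without overlap, up to 6 called members of each list (otherwise up to 3 by p), preset genes of each theme, every gene called in the difference between treatments and the 10 smallest p of the successive-change test; genes outside the rule are named as such. The comparison, the lists and the rule were chosen with earlier results of these data known. Replicate numbers did not pair the 6 h and 3 h arrays of IL-1β alone (correlations of deviations −0.23, −0.204 and 0.0157). With aminaphtone these correlations were 0.662, −0.27 and 0.691. Between the 2 treatments they were 0.456, −0.0862 and 0.711 at 6 h and −0.106, 0.519 and −0.0106 at 3 h. The main fits paired no arrays. Promoter letters came from RefSeq, while the genome build of the array annotation is not given in the sources used here.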

Additional observations from a re-analysis of the deposited data

Results flagged for a closer look

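The 2 results below stood out because the change from 3 to 6 h differed between IL-1β alone and IL-1β with aminaphtone by a test of the difference itself. For PFKFB4 the difference was 1.48 on the log2 scale, with no overlap between the 6 h arrays of IL-1β alone and those with aminaphtone. For BNIP3 it was 1.18. In limma both had an adjusted p of 0.0474, and without the 1 h group of IL-1β alone, an alternative chosen after seeing the data, the adjusted p was 0.0133 for PFKFB4 and 0.0383 for BNIP3. With only the 12 arrays of these 4 groups in the fit it was 0.0824 for PFKFB4 and 0.167 for BNIP3. The cause was not tested.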

How the results depend on the processing

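The count of transcript clusters called between 6 and 3 h of IL-1β alone, 81, was 166 with only the 6 arrays compared, 3713 with array weights (whose estimation did not converge), 441 without the 1 h group, and 16 to 309 with 1 array left out. With aminaphtone the 42 calls became 164, 7117 and 406 under the same 3 settings, and 4 to 260 with 1 array left out. The difference between treatments, 2 calls, gave 0 with only the arrays compared, without the filter, with the filter at the 50th percentile, with median centring, with a trended robust variance and with the replicate block, 1917 with array weights, and 0 to 3 with 1 array left out. The difference between successive changes, 285 calls, gave 43 with only the arrays compared, 5010 with array weights and 142 to 937 with 1 array left out. The replicate block gave 93 calls between 6 and 3 h of IL-1β alone, 69 of them shared with the 81; no array correlated best with its own number (0 of 6). No named gene that was called reversed its sign under the alternatives run. Of 39 called named genes, 13 stayed called in all 18 fits with 1 array left out; 26 lost their call without replicate 2 of the 3 h group, 26 without replicate 1 of the 6 h group, 21, 19 and 16 without replicate 3 or 2 of the 6 h group and replicate 3 of the 3 h group, and 5 without replicate 1 of the 3 h group. Of 103 named genes, 4 lost their call with median centring, 2 without the filter and 5 with the replicate block, while 26 gained one without the 1 h group and 53 with array weights. The cause of each shift was not tested.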
